A study of Saccharomyces cerevisiae with 22 samples.

Results

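The yeast strains that carry alanine in place of lysine 44 (K44A) or valine 81 (V81A) of histone H4 were compared directly with each other. The arrays were taken by their titles, hhf2-pm-K44A and hhf2-pm-V81A, with 2 cultures (a and b) of each strain, so 4 of the 22 arrays of the series entered the contrast. The question put to them was what differs between the strains on and off chromosome XIV, since the genes of that chromosome stood above those of the unmutated control in both. K44A and V81A differed in 2814 of 6388 gene probes (44.1%), and on chromosome XIV most genes were lower in K44A. Off that chromosome, mating genes were mostly higher in K44A and amino-acid synthesis genes mostly lower.

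The series profiles 11 Saccharomyces cerevisiae strains, each with a point mutation in histone H3 (HHT2) or H4 (HHF2) or an unmutated histone, grown in 2 independent cultures to mid-log phase in synthetic complete medium with glucose. K44A and V81A have the mutated residue in HHF2, and the control hhf2-wt carries unmutated HHF2. All strains were labelled BY4742, and each array carried cRNA of 1 strain and of a single pool of wild-type RNA, also labelled BY4742. The strain was labelled with Cy3 in culture a and with Cy5 in culture b. The titles of K44A and V81A carry the number 2 and those of hhf2-wt the number 1, whose meaning the labels do not give. It is the same for K44A and V81A, but coincides with mutant against control wherever hhf2-wt is used below. Whether each strain is 1 clone, whether the H3 and H4 genes other than the mutated one are present, and how the mutation was placed are not given in the labels.

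Each value below is a log2 ratio of strain over wild-type reference, so 1 unit is a doubling. A probe counts as called where the limma test of the direct difference gave a Benjamini-Hochberg adjusted p under 0.05 over all gene probes, and a difference is K44A minus V81A ± its standard error. Median signals were 477 and 481 in K44A (a and b), 413 and 496 in V81A, and 448 and 633 in hhf2-wt, and between 68 and 246 probes an array were not above background in the strain channel. Across gene probes the cultures of K44A correlated at r = 0.955 and those of V81A at r = 0.944, as a description of these arrays. Directions were taken from the dyes in the labels. The series text gives the opposite order, under which the sign of every ratio and difference given here would turn, those of chromosome XIV included. Under the labels' order the strains read as a-type cells. STE2, the receptor for alpha-factor, stood at 4.51 and 4.87 in K44A, 3.28 and 3.86 in V81A, and 4.41 and 4.96 in hhf2-wt, and MF(ALPHA)1, the alpha-factor gene, stood at -6.08 and -5.29, -5.93 and -5.16, and -5.74 and -5.29. BY4742 is known as an alpha strain that lacks URA3, and URA3 read 3.92 to 4.56 on these 6 arrays while MET17, of methionine synthesis, read -4.83 to -4.37. Under the labels' order the reference thus shows the pattern of the labelled strain and the mutants and hhf2-wt do not, while under the opposite order the strains would show it and the reference would not. URA3 and MET17 were chosen after their values were seen.

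Histone H4 pairs with H3, and 2 such pairs with H2A and H2B form the core around which DNA wraps in a nucleosome. Yeast carries the H3 and H4 proteins each on 2 genes, arranged as the divergent pairs HHT1 with HHF1 and HHT2 with HHF2. Both lysine 44 and valine 81 lie in the folded part of H4, not in its tail. A chromosome whose genes are all raised together gives a distinct pattern in expression data, since the median of its genes shifts while those of the other chromosomes do not. DNA copy number was not measured here.

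The targeted gene HHF2 read -0.60 and -0.73 in K44A, against -0.11 and 0.07 in V81A, with hhf2-wt at -0.85 and -0.96. Its difference was -0.64 ± 0.10 (limma adjusted p = 0.000153), with both K44A cultures below both V81A cultures. The probe cannot see a single substitution, so this value does not check the labels. HHT2, the H3 gene beside it on chromosome XIV, read -2.03 and -2.04 in K44A, against -1.29 and -1.36 in V81A (difference -0.71 ± 0.14, adjusted p = 0.000894). With each array centred on its own chromosome XIV median, HHF2 and HHT2 differed by -0.32 and -0.39 (limma adjusted p = 0.0198 and 0.0374). HHF1 and HHT1, the second copies of these genes on chromosome II, differed by -0.58 ± 0.11 and -0.40 ± 0.12. HHF1 and HHF2 are near-identical, as are HHT1 and HHT2, and how far each probe reads the other copy was not tested.

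The other histone genes are those of H2A, H2B and the variants. HTB1 and HTB2, which encode H2B, read -0.24 ± 0.07 and -0.21 ± 0.08, and the variant H2A gene HTZ1 read -0.31 ± 0.08. HTA1 and HTA2, which encode H2A, read -0.14 ± 0.05 and 0.05 ± 0.05, and the linker histone HHO1 and the centromeric histone CSE4 read -0.10 and 0.04, all without a call. With median centring in place of loess HTA1 was called, at -0.35 (adjusted p = 0.00145), and HTB1 and HTB2 read -0.42 and -0.40, beside -0.44 for HHT1. Off chromosome XIV, 5 of 9 histone genes were lower, beside 21.1% of the probes placed there. The 2 on it, HHF2 and HHT2, were both lower, beside 70.1% of that chromosome's probes. In all, 7 of 11 histone genes were lower and the other 4 were not called, beside 22.9% of all probes called lower. The count of 7 was smaller without K44A b or V81A b, as were the calls over all probes. The call of HHT1 (adjusted p = 0.0139) was lost without any one of the 4 cultures (adjusted p 0.0509 to 0.0772). That of HTB1 was lost without K44A b or V81A b (0.161 and 0.0701), and that of HTB2 without K44A b, V81A a or V81A b (0.364, 0.211 and 0.0616), without the dye term (0.0552), with only the 8 arrays of H4 strains (0.0749) and in the authors' value table (0.0662). Set against hhf2-wt, the 4 H2A and H2B genes stood lower in both strains, at -0.82 to -0.61 in K44A and -0.65 to -0.53 in V81A. The comparisons with hhf2-wt share the control arrays, so their values are given only side by side.

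Chromosome XIV had 358 measured gene probes. Its genes had a median log2 ratio of 0.398 and 0.376 in K44A, against 0.713 and 0.706 in V81A, and of -0.033 and -0.005 in hhf2-wt. Its median stood above 0 in both mutants, with no overlap between them, and averaged 0.388 ± 0.016 in K44A, against 0.71 ± 0.005 in V81A (SD, n = 2 each). The difference was -0.322, and an exact two-sided permutation test over the 4 arrays gave p = 0.333, the smallest p that 6 arrangements allow. The medians of the other 15 nuclear chromosomes lay between -0.055 and 0.041 in K44A and between -0.048 and 0.032 in V81A. Per gene, the median difference of K44A from hhf2-wt was 0.387, or 1.31-fold, and that of V81A was 0.724, or 1.65-fold. Direct differences over the chromosome had a median of -0.333, a 0.794-fold level in K44A, beside -0.011 over the 4966 probes placed on other chromosomes.

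**Figure D1:**
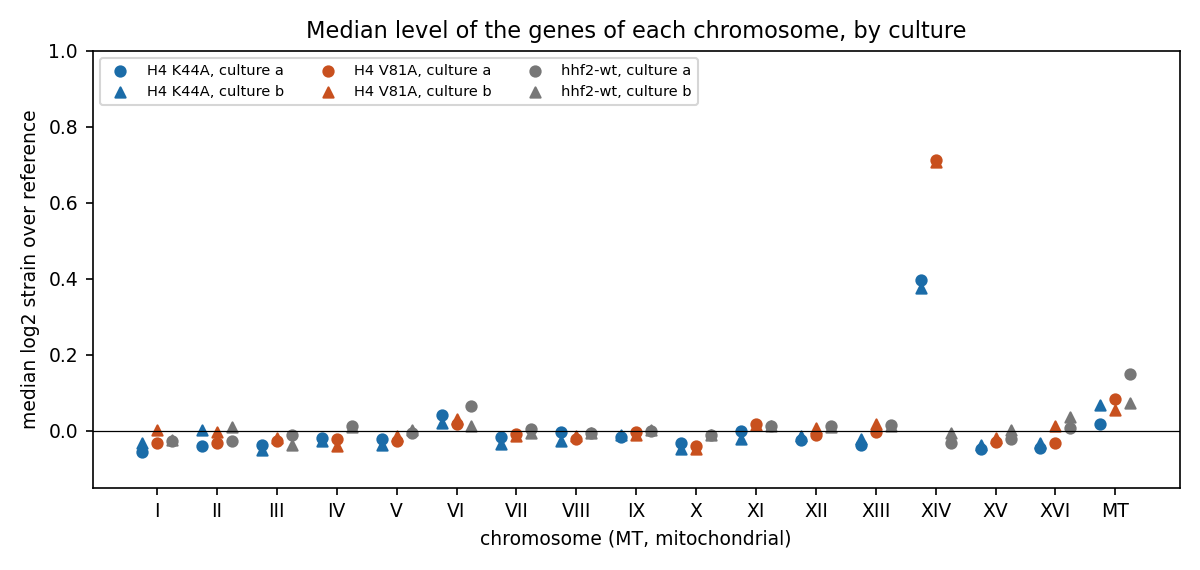
Median log2 ratio of strain over reference for the genes of each chromosome (vertical axis, log2), by chromosome (horizontal axis), with a circle for culture a and a triangle for culture b of H4 K44A, H4 V81A and hhf2-wt. Chromosome XIV stands at 0.398 and 0.376 in K44A and at 0.713 and 0.706 in V81A, while the other nuclear chromosomes lie near 0 in every culture.

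Of the 358 genes, 251 were lower in K44A (70.1%) and 26 higher (7.26%), which together is 77.4% called. On the other nuclear chromosomes 22.9 to 46.3% of the genes were called. Both K44A cultures stood beyond both V81A cultures for 88.8% of the chromosome XIV genes, against 67.5% of all probes. In 313 of the 358 genes (87.4%) the difference was below 0. Differences of at least 1.7-fold were fewer, with 12 genes lower (3.35%) and 4 higher (1.12%). Against hhf2-wt, 285 genes were higher (79.6%) and 4 lower (1.12%) in K44A, and 321 were higher (89.7%) and 4 lower (1.12%) in V81A. Of all probes, 15.9% were higher and 13.6% lower than hhf2-wt in K44A, and 16.8% and 17.1% in V81A. When each array was centred on its own chromosome XIV median, 172 of the 358 genes were called, 92 higher and 80 lower.

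The raised level ran the length of the chromosome in both strains. In 12 successive segments of 30 genes (28 in the last), the median difference from hhf2-wt was 0.293 to 0.479 in K44A and 0.6 to 0.842 in V81A. V81A stood above K44A in 12 of 12 segments, with direct medians of -0.384 to -0.244. The left arm (289 genes) and the right arm (69 genes) had direct medians of -0.334 and -0.323. The 5 outermost genes at each end, 10 in all, stood at 0.616 above hhf2-wt in K44A and 0.636 in V81A, with a median direct difference of -0.27.

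**Figure D2:**
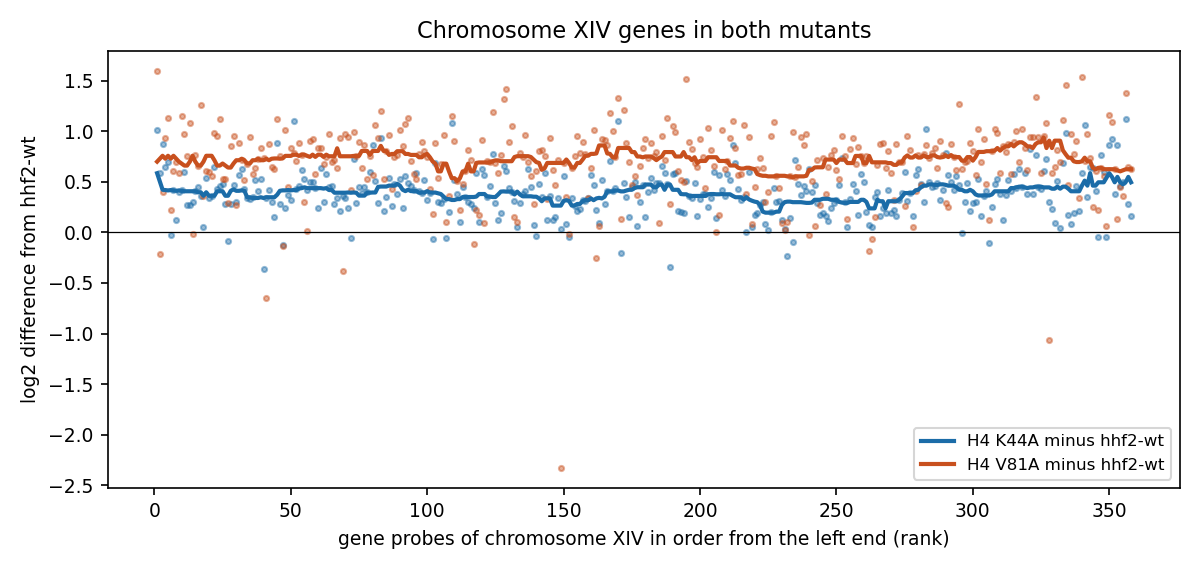
Log2 difference from hhf2-wt (vertical axis) of each gene probe of chromosome XIV, ranked from the left end (horizontal axis), for H4 K44A and H4 V81A, with points for genes and lines for the running median of 21 genes. The line of K44A runs below that of V81A along nearly the whole chromosome, and the 12 segment medians are 0.293 to 0.479 in K44A and 0.6 to 0.842 in V81A.

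The measured difference was larger among brighter probes. Among the dimmest 120 of the chromosome XIV probes by strain signal, the medians above hhf2-wt were 0.34 in K44A and 0.558 in V81A, with a direct median of -0.223. In the middle 119 they were 0.392 and 0.761 (direct -0.372), and in the brightest 119 they were 0.426 and 0.879 (direct -0.402). The part of background signal in this trend was not tested.

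Some chromosome XIV genes went far past its median in the same direction. CUS2, a factor of the U2 spliceosomal particle, read -0.01 and -0.03 in K44A, against 1.07 and 1.07 in V81A and 0.34 and 0.35 in hhf2-wt (difference -1.09 ± 0.05, limma adjusted p = 3.27e-09). CUS2 thus stood under hhf2-wt in K44A (-0.36, adjusted p = 5.18e-05), on a chromosome where 341 of 358 genes stood above it. AQR1, a plasma membrane exporter, read 0.26 and 0.08 in K44A, against 1.17 and 1.35 in V81A (-1.09 ± 0.11). LEU4, of leucine synthesis, read 0.92 and 0.96 in K44A, against 1.82 and 2.08 in V81A (-1.01 ± 0.08). BIO5, a carrier of biotin precursors, ATP11, which assembles the mitochondrial ATP synthase, and POP2, a subunit of the Ccr4-Not deadenylase, differed by -0.95, -0.91 and -0.89. POP2 and AQR1 stood 0.08 and -0.09 from hhf2-wt in K44A, without a call, and 0.97 and 0.99 above it in V81A.

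Among the 6 largest differences in the other direction, 3 were called lower in V81A than in hhf2-wt, namely YGP1, AGA1 and YNL284C-A. YGP1, a secreted glycoprotein induced when nutrients run short, read 0.52 and 0.62 in K44A, against -1.86 and -1.74 in V81A and 0.62 and 0.45 in hhf2-wt. Its difference of 2.36 ± 0.18 (limma adjusted p = 3.28e-07), or 5.14-fold, was the largest on any chromosome. AGA1, the cell wall anchor of a-agglutinin, read 1.44 and 1.39 in K44A, against -0.08 and 0.20 in V81A (1.36 ± 0.19). YNL284C-A differed by 0.99 ± 0.22, SNO2, a relative of a vitamin B6 synthesis gene, by 0.80 ± 0.08, and PDR18, an ABC transporter, by 0.73 ± 0.09. The hhf2-wt cultures a and b lay apart for YNL284C-A, at 1.39 and 0.55, and for RTC4, the remaining gene of the 6, at 1.31 and 0.68. SNO2 was placed on chromosome XIV by its name, while its probe comes next after that of SNZ3, a chromosome VI gene, in the array's numbering. How far the probes of YNL284C-A, RTC4 and SNO2 read other loci was not tested. RTC4 differed by 0.74 ± 0.24 (adjusted p = 0.0199), a call lost without K44A a, K44A b or V81A a (0.0702, 0.09 and 0.137). Relative to hhf2-wt, YGP1, AGA1 and YNL284C-A stood at 0.03, 0.30 and 0.34 in K44A, without a call, against -2.33, -1.06 and -0.65 in V81A, each of them called. PDR18 and SNO2 stood at 0.86 and 0.58 in K44A, against 0.13 and -0.21 in V81A, where neither passed the test.

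Off chromosome XIV, 1037 of 4966 placed probes were higher in K44A (20.9%) and 1049 lower (21.1%). At 1.7-fold or more, 2.17% were higher and 0.866% lower. Probes that could not be placed on a chromosome, 1064 in all, had 286 higher (26.9%) and 165 lower (15.5%). Leaving out K44A b gave 1365 calls off chromosome XIV, against 2086 with all cultures.

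The largest higher gene was SER3, a phosphoglycerate dehydrogenase of serine synthesis. It read 3.37 and 3.58 in K44A, against 1.95 and 1.48 in V81A and 2.05 and 2.18 in hhf2-wt (difference 1.76 ± 0.13, limma adjusted p = 3.91e-07). Relative to hhf2-wt it stood at 1.36 in K44A and -0.40 in V81A. ZRT1, the high-affinity zinc importer, read 0.96 and 1.23 in K44A, against -0.77 and -0.44 in V81A (1.7 ± 0.20). PHM8, a phosphatase of nucleotide breakdown induced when phosphate is short, read 1.0 and 0.92 in K44A, against -0.65 and -0.63 in V81A (1.6 ± 0.15). YRO2 (difference 1.61 ± 0.14), a membrane protein related to the heat-shock protein Hsp30, read -1.63 and -1.09 in K44A, against -3.05 and -2.88 in V81A, and so was below the reference in both. CWP1, a cell wall mannoprotein, read 0.10 and 0.13 in K44A, against -1.58 and -1.16 in V81A (1.48 ± 0.13). YDR210W-B (1.59 ± 0.17), YFL002W-B (1.51 ± 0.16) and YMR158C-A (1.48 ± 0.12) were also among the 12 largest. So were the mating genes FIG1, FAR1 and STE18 and the recombination gene RDH54, described below. The hhf2-wt cultures a and b lay apart for YDR210W-B (1.27 and 0.51) and YFL002W-B (1.335 and 0.596). How far these 2 probes read other loci was not tested.

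The largest lower gene was COS12, of a family of genes found near chromosome ends. It read 0.00 and -0.04 in K44A, against 1.91 and 1.81 in V81A and 0.14 and 0.27 in hhf2-wt (difference -1.88 ± 0.19, limma adjusted p = 2.91e-06), or 3.69-fold lower. BNA1, an enzyme of NAD synthesis, read 0.14 and 0.12 in K44A, against 1.5 and 1.43 in V81A (-1.33 ± 0.08). HXT2, a glucose transporter, read 0.89 and 0.97 in K44A, against 2.14 and 2.26 in V81A, with hhf2-wt at 0.02 and 0.05, so it stood above the control in both. IME4, an mRNA methyltransferase needed in meiosis, read 0.27 and 0.26 in K44A, against 1.73 and 1.05 in V81A (-1.12 ± 0.15), with a wide spread between the V81A cultures. GGC1, the mitochondrial GTP carrier, and ATR1, a drug exporter, differed by -1.09 and -1.08. The other 6 of the 12 were the amino-acid synthesis genes ARG1, ARG3, ARO4, HIS4, ASN1 and ARG4.

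**Figure D3:**
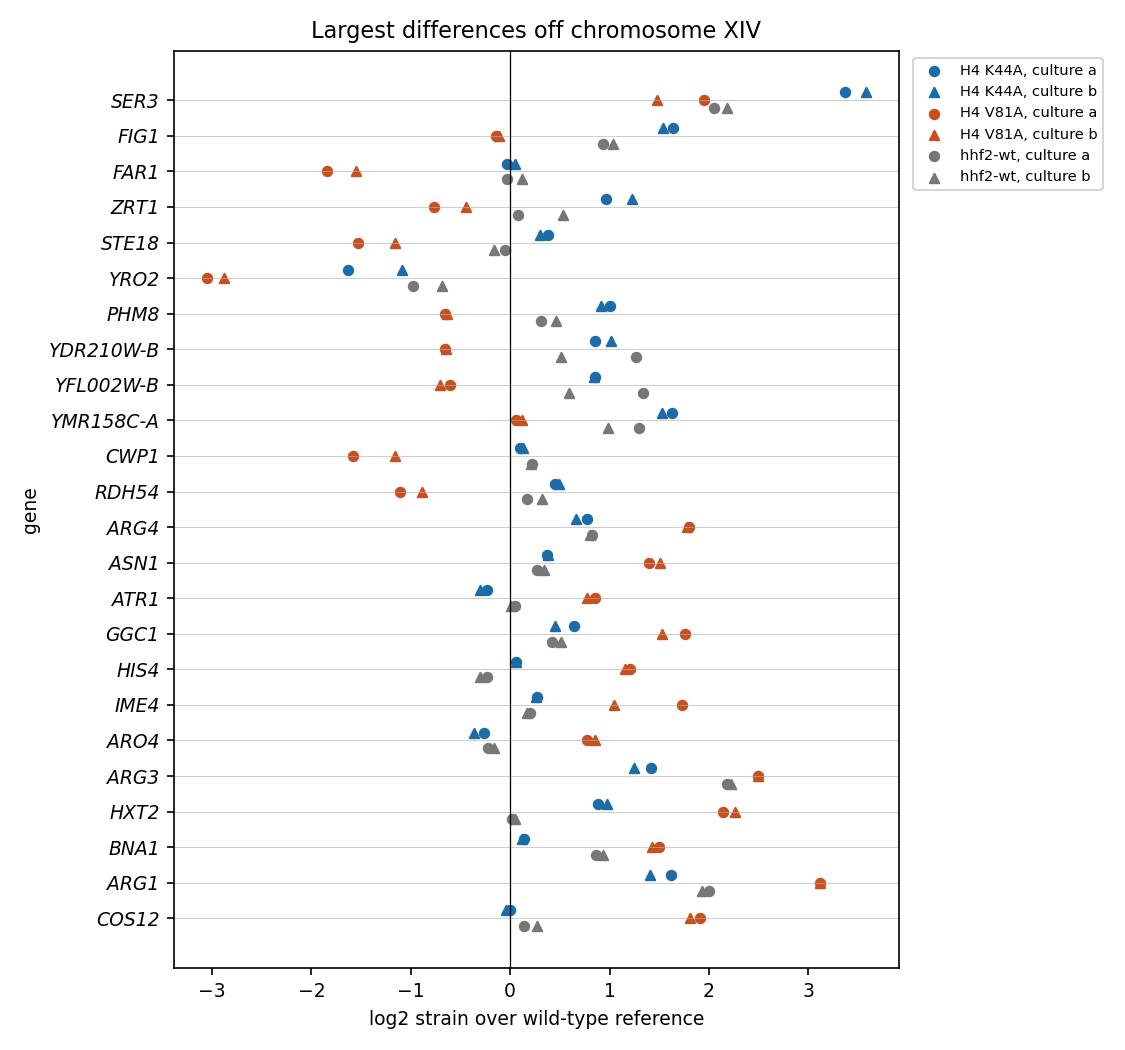
Log2 ratio of strain over reference (horizontal axis) in every culture of H4 K44A, H4 V81A and hhf2-wt for the 12 genes most higher and the 12 most lower in K44A off chromosome XIV (rows, from SER3 at 1.76 down to COS12 at -1.88). Both cultures of K44A lie beyond both of V81A in each row because the genes were chosen with cultures not overlapping. For many rows hhf2-wt lies near K44A.

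Mating genes were nearly all higher in K44A. Haploid yeast of mating type a express a set of a-specific genes, and both types express the receptor-coupled kinase pathway that answers mating pheromone. In a/alpha diploids the a1-alpha2 repressor shuts off this pathway and other haploid-specific genes, and alpha2 shuts off the a-specific genes. In bulk cultures, fewer cells of a kind and less RNA per cell cannot be told apart. All 7 a-specific genes measured were higher in K44A, beside 21.1% of all probes. Their median difference was 0.91, against -0.018 over all probes. Set against hhf2-wt their median was -0.13 in K44A and -1.12 in V81A.

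BAR1, the protease that degrades alpha-factor, read 3.16 and 3.22 in K44A, against 1.68 and 2.14 in V81A and 3.21 and 3.42 in hhf2-wt (difference 1.29 ± 0.16, limma adjusted p = 1.7e-05). AGA2, the binding subunit of a-agglutinin, differed by 1.18 ± 0.19 and the receptor gene STE2 by 1.11 ± 0.11. MFA1, an a-factor gene, differed by 0.81 ± 0.12. V81A remained far above the alpha-type reference for each of these 4 genes, at 1.68 or more. ASG7 (0.91, adjusted p = 0.00727) lost its call without K44A b or V81A a (0.0581 and 0.0672), and STE6, the a-factor exporter (0.72, 0.0092), lost its call without K44A a or V81A a (0.0689 and 0.0913). MFA2, the second a-factor gene, lies on chromosome XIV. Its cultures overlapped, with 4.34 and 4.78 in K44A, against 3.82 and 4.35 in V81A (0.48 ± 0.10, adjusted p = 0.00119), and the call was lost with median centring in place of loess (0.0809) and without the dye term (0.118).

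Of 26 pheromone-response genes, 22 were higher in K44A and the other 4 were not called, beside 21.1% of all probes higher. The median difference was 0.64, and off chromosome XIV 21 of 23 were higher with a median of 0.70. FIG1, a membrane protein of mating, read 1.64 and 1.53 in K44A, against -0.14 and -0.12 in V81A (1.72 ± 0.26). FAR1, which arrests the cell cycle in response to pheromone, read -0.04 and 0.05 in K44A, against -1.85 and -1.55 in V81A and -0.04 and 0.12 in hhf2-wt (1.7 ± 0.15). STE18, the gamma subunit of the receptor's G protein, read 0.38 and 0.30 in K44A, against -1.53 and -1.15 in V81A (1.68 ± 0.15, limma adjusted p = 1.2e-06). Relative to hhf2-wt, FAR1 stood at -0.04 in K44A and -1.74 in V81A.

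The parts of the pathway from receptor to transcription factor were looked at singly, chosen after their values were seen. GPA1 and STE4, the alpha and beta subunits, differed by 1.39 ± 0.12 and 0.90 ± 0.10. The scaffold STE5 differed by 0.99 ± 0.08, the kinase FUS3 by 1.20 ± 0.13 and the G-protein regulator SST2 by 1.24 ± 0.13. STE12, the transcription factor at the end of the pathway, differed by 0.42 ± 0.08. Each was lower than hhf2-wt in V81A, at -1.58 for GPA1, -0.96 for STE4, -0.88 for STE5, -1.27 for FUS3, -1.35 for SST2 and -0.60 for STE12. In K44A these 6 genes lay between -0.19 and 0.10.

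A further 5 genes known to be expressed in haploid cells were also set together after their values were seen. All 5 were higher in K44A, beside 21.1% of all probes, but since the choice followed the values this count is no separate evidence. RDH54, a recombination gene, read 0.45 and 0.49 in K44A, against -1.11 and -0.88 in V81A (1.47 ± 0.07, limma adjusted p = 1.79e-08). RME1, a repressor of entry into meiosis, read -0.38 and -0.41, against -1.68 and -1.42 (1.15 ± 0.17). HO, the endonuclease of mating-type switching, read -0.32 and -0.35 in K44A, against -1.87 and -0.97 in V81A (1.08 ± 0.18), and its difference was 0.67 without V81A a. NEJ1, of DNA end joining, differed by 0.95 ± 0.09, and AXL1, a protease that matures a-factor, by 0.47 ± 0.06. The mating-type genes themselves went the other way. MATALPHA2 read -1.02 and -0.90 in K44A, against -0.13 and -0.34 in V81A and -0.76 and -0.82 in hhf2-wt (-0.73 ± 0.08, adjusted p = 4.46e-06). MATALPHA1, chosen like HMRA1 after its values were seen, read -3.15 and -2.94 in K44A, against -2.50 and -2.39 in V81A (-0.60 ± 0.12). These probes may also read the silent copies at HML, which share their sequence. The a1 gene read by HMRA1 did not pass the test, at 4.38 and 4.47 in K44A and 4.77 and 4.51 in V81A (-0.22 ± 0.21).

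**Figure D4:**
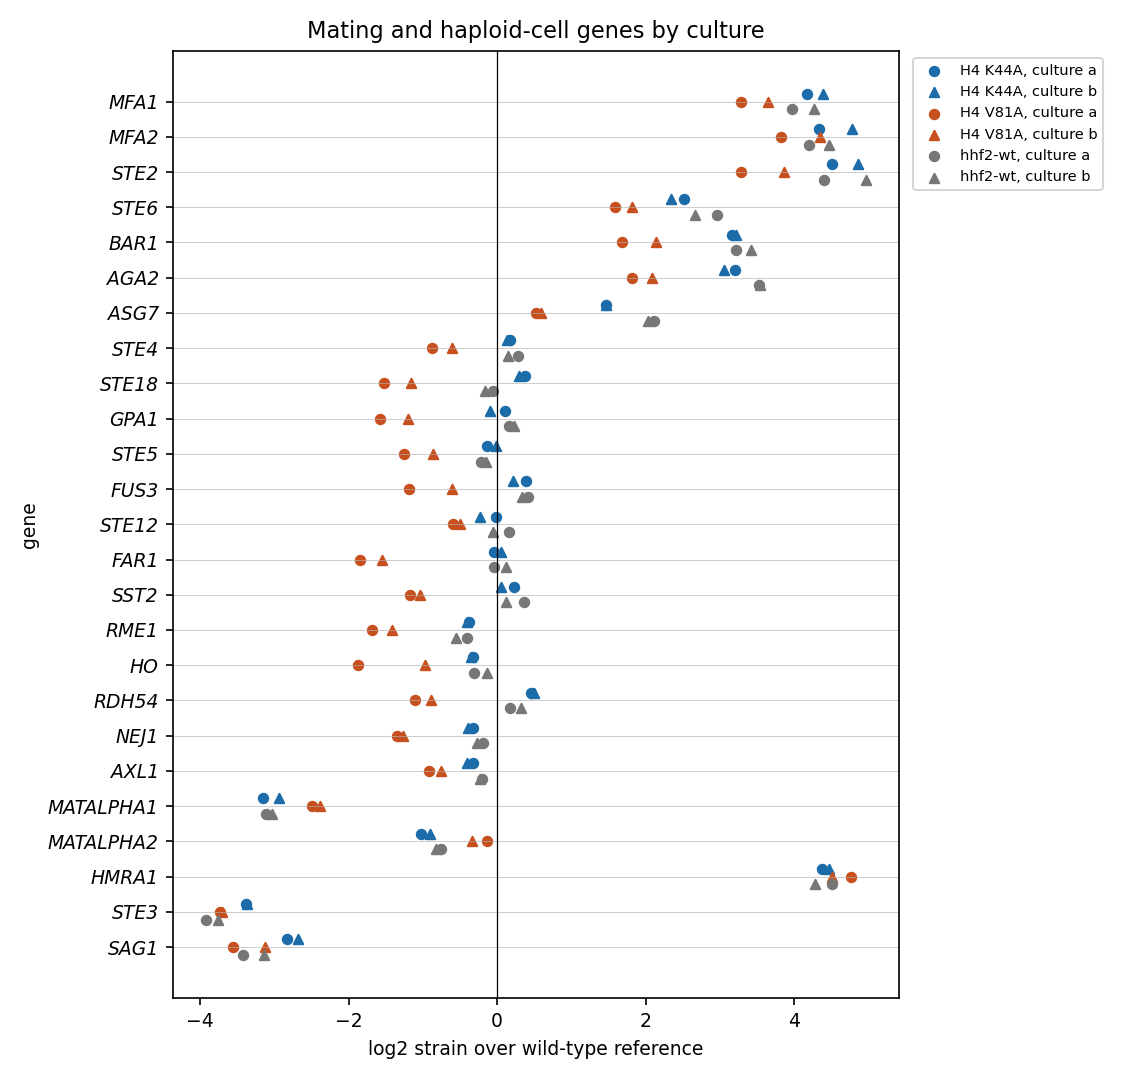
Log2 ratio of strain over reference (horizontal axis) in every culture of H4 K44A, H4 V81A and hhf2-wt for 25 mating and haploid-cell genes (rows). K44A lies right of V81A for the a-specific, pathway and haploid genes, except for MFA2, where the cultures overlap. K44A lies left of V81A for MATALPHA1 and MATALPHA2, and for most rows hhf2-wt lies beside K44A.

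The alpha-specific genes stayed far below the reference in both strains. SAG1, alpha-agglutinin, read -2.83 and -2.69 in K44A, against -3.56 and -3.13 in V81A (difference 0.59 ± 0.06, limma adjusted p = 3.2e-06). STE3, the receptor for a-factor, differed by 0.34 ± 0.08, a call lost in the authors' value table (adjusted p = 0.0526). MF(ALPHA)1 and MF(ALPHA)2 read -0.14 ± 0.11 and 0.08 ± 0.13, without a call, and their culture values overlapped.

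Amino-acid synthesis genes under Gcn4, the activator that answers amino-acid shortage, were lower in K44A. Of 46 measured, 40 were lower (22.9% of all probes were), 1 was higher and 5 were not called, and the median difference was -0.54. Set against hhf2-wt, their median was -0.07 in K44A and 0.48 in V81A. ARG1, of arginine synthesis, read 1.62 and 1.41 in K44A, against 3.12 and 3.11 in V81A and 2.0 and 1.94 in hhf2-wt (-1.60 ± 0.17, limma adjusted p = 4.47e-06). ARG3 and ARG4, the neighbouring steps, differed by -1.16 ± 0.11 and -1.07 ± 0.10. ARO4, the entry to aromatic amino acids, read -0.26 and -0.36 in K44A, against 0.77 and 0.86 in V81A (-1.12 ± 0.08).

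HIS4, of histidine synthesis, read 0.06 and 0.06 in K44A, against 1.20 and 1.15 in V81A, and ASN1, an asparagine synthetase, read 0.37 and 0.38 in K44A, against 1.40 and 1.51 in V81A. The single member that was higher was HIS3, also of histidine synthesis. It read 1.38 and 1.24 in K44A, against 0.02 and 0.40 in V81A and 1.49 and 1.41 in hhf2-wt (1.10 ± 0.14). HIS3 is a common selection marker, and BY4742 is known to lack part of it. The mRNA of GCN4 itself, chosen after its values were seen, read 0.16 and 0.12 in K44A, against 0.42 and 0.43 in V81A (-0.28 ± 0.07, adjusted p = 0.00455), a call lost without K44A b (0.0649) and in the authors' value table (0.402).

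Of 51 stress-induced genes, 28 were higher in K44A and 1 lower, beside 21.1% and 22.9% of all probes, with a median difference of 0.45. Fewer of them were called without K44A b or V81A a, as was so among all probes. The median against hhf2-wt was 0.03 in K44A and -0.33 in V81A. HSP104, the disaggregase, read 0.86 and 0.46 in K44A, against -0.27 and -0.68 in V81A (1.14 ± 0.19). The small chaperone HSP42 read 0.92 and 0.85, against -0.47 and -0.45 (1.34 ± 0.19), both chosen after their values were seen.

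Heat-shock and chaperone genes had 13 of 23 higher (21.1% of all probes were) and 1 lower (22.9%), with a median of 0.29. SSA4, the stress-inducible Hsp70, read 1.55 and 1.18 in K44A, against 0.13 and -0.05 in V81A and 0.73 and 0.91 in hhf2-wt (1.33 ± 0.14, limma adjusted p = 5.31e-06). BTN2 and CUR1, which sort misfolded proteins, differed by 0.95 ± 0.10 and 0.79 ± 0.08. The median of the chaperone genes against hhf2-wt was 0.48 in K44A and 0.10 in V81A. Proteasome subunits had 18 of 33 higher and the other 15 not called, beside 21.1% of all probes higher, at a small median of 0.17. PRE6 and PRE1, subunits of the core particle, differed by 0.50 ± 0.06 and 0.40 ± 0.05. The proteasome count became 8 with median centring in place of loess, where 1095 of all 6388 probes were higher, against 1349 with loess. It was also smaller without K44A b, V81A a or V81A b, as were the calls over all probes.

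**Figure D5:**
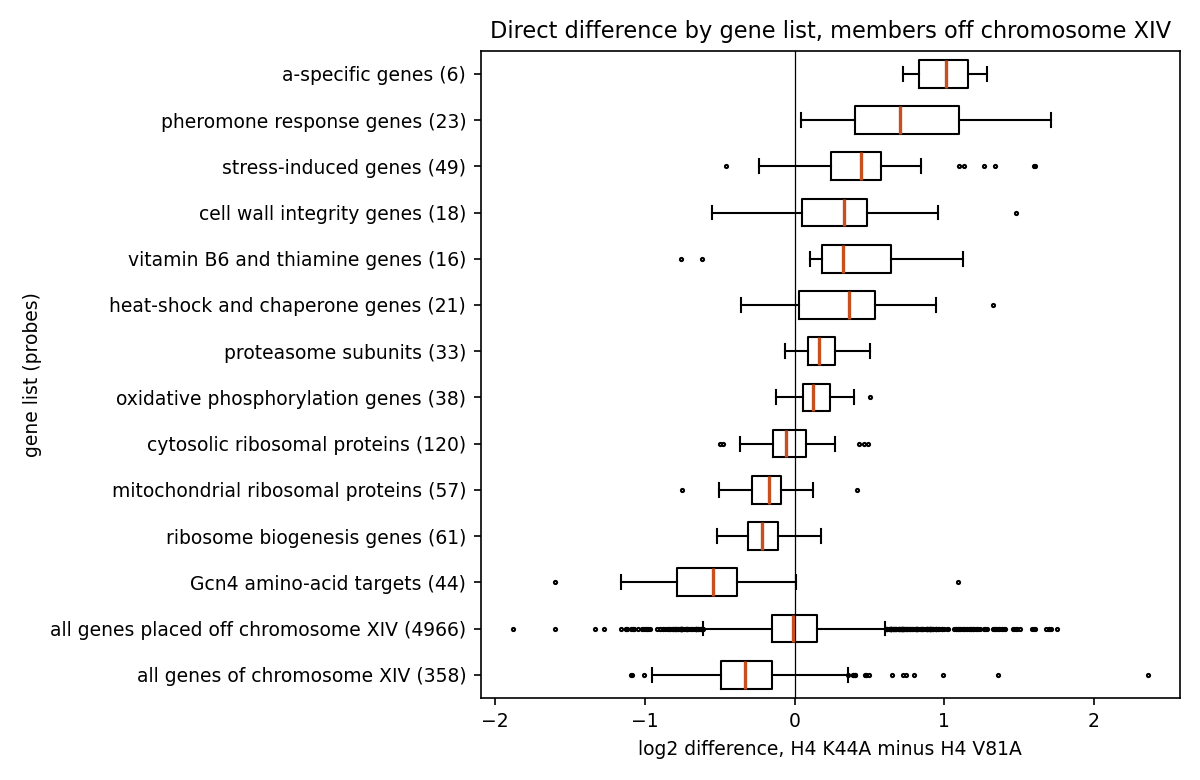
Log2 difference of K44A minus V81A (horizontal axis) for the members of 12 gene lists off chromosome XIV, with all genes placed off and on that chromosome for comparison (number of probes in parentheses). Boxes span the quartiles, the coloured line is the median, whiskers reach the last value within 1.5 box lengths and dots are values beyond; the a-specific genes are highest and the Gcn4 targets lowest of the lists.

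Cell wall genes were called in part. Genes of the cell wall integrity pathway had 11 of 18 higher and 2 lower, with a median of 0.33, and cell wall mannoproteins had 9 of 20 higher and the other 11 not called, beside 21.1% of all probes higher and 22.9% lower. SED1, a major wall protein of resting cells, read 0.46 and 0.63 in K44A, against -0.52 and -0.31 in V81A (0.96 ± 0.14, limma adjusted p = 6.67e-05). HSP150, a secreted wall protein, differed by 0.66 ± 0.16 (adjusted p = 0.00405), a call lost without V81A a (0.0588).

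Many genes that build ribosomes were lower in K44A. Of 67 ribosome biogenesis genes, 42 were lower and 25 not called, beside 22.9% of all probes lower, with a median of -0.25. The 6 on chromosome XIV were all lower (median -0.45), beside 70.1% of all probes there (median -0.333). Among them was DBP2, an RNA helicase (-0.62 ± 0.11). Of the 61 on other chromosomes, 36 were lower with a median of -0.22, led by RRP12 (-0.52 ± 0.10), which exports pre-ribosomes. The count of 42 was smaller without K44A b or V81A a, as were the calls over all probes. Against hhf2-wt, 28 of the 67 were lower and 5 higher in K44A, while 1 was lower and 9 higher in V81A. Of all probes, 13.6% were lower and 15.9% higher than hhf2-wt in K44A, and 17.1% and 16.8% in V81A. Among the 61 off chromosome XIV, 27 were lower and 0 higher in K44A, while 1 was lower and 4 higher in V81A. Of the probes placed off it, 15.6% were lower and 10.9% higher in K44A, and 18.2% and 12.4% in V81A.

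Cytosolic ribosomal protein genes had 12 of 128 higher and 25 lower, no larger shares than the 21.1% and 22.9% of all probes, and their median of -0.07 was close to that of all probes. On chromosome XIV 70.1% of all probes were lower. Of the cytosolic ribosomal protein genes there, 6 of 8 were lower, including RPS7B at 0.22 and 0.20 in K44A, against 0.90 and 1.08 in V81A (-0.78 ± 0.06). The counts over all 128 depended on the scaling and on single cultures. With median centring in place of loess 73 were lower and 1 higher, while over all 6388 probes 1161 were lower and 1095 higher. Fewer of the 128 were called without K44A b, V81A a or V81A b, as was so among all probes. Mitochondrial ribosomal protein genes had 34 of 66 lower, beside 22.9% of all probes, and 1 higher, beside 21.1% (median -0.20). All 9 on chromosome XIV were lower (median -0.56), beside 70.1% of all probes there (median -0.333). Off it 25 of 57 were lower (median -0.17), beside 21.1% of the probes placed there. MRPL25 on chromosome VII read -0.34 and -0.51 in K44A, against 0.41 and 0.24 in V81A (-0.75 ± 0.07, limma adjusted p = 1.24e-06).

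Vitamin B6 and thiamine genes were mostly higher in K44A. Of 17 probes, 2 of them for PHO3, 14 were higher and 2 lower, beside 21.1% and 22.9% of all probes (median 0.34). How far the probes of related genes in this list read each other was not tested. PHO3, a phosphatase that frees thiamine for uptake, had 2 probes, which read 1.24 and 1.18 and also 1.30 and 1.36 in K44A, against 0.37 and 0.16 and also 0.25 and 0.17 in V81A (0.94 ± 0.17 and 1.13 ± 0.13). SNZ3, of vitamin B6 and thiamine synthesis, differed by 0.91 ± 0.09. SNZ1, the relative of SNZ3 induced in resting cells, was lower, at 2.0 and 1.92 in K44A, against 2.51 and 2.66 in V81A (-0.62 ± 0.13), and was chosen after its value was seen.

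Genes near chromosome ends did not move one way. Of 162 probes for the 5 outermost genes of each end, a list set up after values were seen, 40 were higher and 36 lower, near the 21.1% and 22.9% of all probes. Among 25 PAU and COS genes, which lie there, 2 were higher and 8 lower, against the same shares of all probes. When only the 4 arrays of these strains were fitted, 7 were higher and 10 lower. In that fit 1557 of all 6388 probes were higher and 1684 lower. COS2 and COS5 differed by -0.75 ± 0.07 and -0.61 ± 0.07, beside COS12 above. The COS genes are alike in sequence, so their probes may read each other.

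Meiosis and sporulation genes had 19 of 44 higher and 3 lower, beside 21.1% and 22.9% of all probes. HOP1, of the meiotic chromosome axis, read 0.74 and 0.85 in K44A, against -0.27 and -0.27 in V81A and 0.79 and 0.89 in hhf2-wt (1.07 ± 0.08, limma adjusted p = 5e-07). DMC1, the meiotic recombinase, read 1.39 and 1.42 in K44A, against 0.51 and 0.33 in V81A and 0.52 and 0.47 in hhf2-wt (0.98 ± 0.07). Against hhf2-wt, HOP1 stood at -0.04 in K44A and -1.11 in V81A, and DMC1 at 0.91 and -0.08.

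Genes induced by DNA damage had 9 of 18 higher and 6 lower, beside 21.1% and 22.9% of all probes. RNR4 and RNR3, subunits of ribonucleotide reductase, differed by 0.76 ± 0.07 and 0.68 ± 0.11. HUG1, an inhibitor of that enzyme, differed by 1.08 ± 0.30 (limma adjusted p = 0.00879), a call lost without K44A b or V81A a (0.0976 and 0.0585) and with only the 8 arrays of H4 strains (0.0636). The 2 members on chromosome XIV were both lower, beside 70.1% of all probes there. Off it 9 of 16 were higher and 4 lower, beside 20.9% and 21.1% of the probes placed there.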

How the data were processed

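Each array has 15552 spots, 12776 of them for 6388 gene probes in duplicate. The deposited files give, per the file headers, spot intensity and local background intensity for each dye. A second deposited table has log2 ratios, which the authors had normalised; it served as an alternative after its sign was checked against the scanner ratios (r = 0.977 to 0.986 on the K44A and V81A arrays, and -0.985 on hhf2-wt a, which was turned). Limma is the only tool that the submitters' processing notes name.

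From the intensities, background was corrected with normexp (offset 50), ratios were normalised within arrays by loess with control spots at weight 0, turned to strain over reference by the dyes in the labels, and averaged over duplicate spots. All 22 arrays were fitted with limma 3.58.1 in R 4.3.3, with 11 strain means and a dye term, which coincides with the culture letter (10 residual degrees of freedom, prior 4.16). Per the labels, the 2 cultures of a strain are separate samples. The p-values measure the spread between such cultures, taken over the 11 strains, and 2 cultures per strain limit the precision. Whether each strain is 1 clone is not given, so the mutation and other differences between the strains cannot be told apart. The a-minus-b deviations of K44A and V81A correlated at r = 0.496 across probes, which may be dye or culture, so the letter was kept as the block. On simulated data the fit called 87 of 100 shifts of 0.5 and 98 of 100 shifts of 1 on the log2 scale in this comparison, among 6388 probes. It also called 12 of the 6188 probes without a shift. The simulated noise was drawn separately for each probe and array, and how far these rates hold for the measured data was not tested.

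No build is named in the deposited files. Names, chromosomes and gene order came from the R64 gene table; 5266 probes matched by symbol and 58 by synonym, 5324 were placed, and the rest went into the counts of all probes only. The genes named are the 12 largest called differences each way off chromosome XIV and 6 on it with cultures not overlapping, up to 3 per list, all histone genes and all members of lists of 8 or fewer; exceptions are marked. The members, lists and tests were chosen with earlier results of these data known. The alternatives were no background subtraction, print-tip loess, median centring, loess without chromosome XIV, no dye term, fewer arrays, a filter on dim probes, the authors' value table, chromosome XIV centred, and leaving out each culture.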

Additional observations from a re-analysis of the deposited data

How the results depend on the processing

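The median difference of chromosome XIV genes kept its sign under every alternative that gave a value, at -0.333 to -0.311; centring the chromosome sets it to 0 by construction. Of 2814 calls in all, the alternatives other than leaving out a culture gave 2048 to 3241, and leaving out a culture gave 1919 to 2275. Without the replicate block, which here is the dye term, 2048 probes were called in all, 241 on chromosome XIV and 1474 off it, and MFA2 lost its call (adjusted p = 0.118). Calls on chromosome XIV were 172 when it was centred on each array and 243 to 251 without a culture; off it, leaving out a culture gave 1365 to 1662. Of 154 named probes, 145 were called and 123 kept their call or lack of one everywhere, while 25 lost a call somewhere. A call was gained by HTA1 with median centring, by URA3 with only the 4 arrays fitted, and by MET17 with only the 4 or the 8 H4 arrays. Values that changed sign were those of HTA2 (-0.009 with print-tip loess, -0.143 with median centring, -0.055 in the value table), MF(ALPHA)2 (-0.091 with print-tip loess, -0.039 in the value table) and CSE4 (-0.017 in the value table), all without a call; the cause was not tested. A block for slide or scan was not run, since the file headers give neither.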

Other observations

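Central carbon metabolism genes differed in small steps. Citrate cycle and gluconeogenesis genes had 13 of 23 higher in K44A and 1 lower, beside 21.1% and 22.9% of all probes, with a median difference of 0.24, led by ACO1, aconitase, at 0.28 and 0.12 in K44A, against -0.42 and -0.39 in V81A. FBP1, of gluconeogenesis, read 0.63 and 0.68 in K44A, against 0.07 and 0.08 in V81A, with hhf2-wt at 0.17 and 0.10 (0.58 ± 0.07). Among hexose transporters 4 of 14 were higher and 4 lower, near the shares of all probes, and HXT2 was the largest. Fewer of these transporters were called without V81A a, as was so among all probes. Maltose and galactose genes had 4 of 15 higher and 4 lower, also near the shares of all probes. Fewer of them were called without K44A a, as was so among all probes. MAL12, a maltase, read 1.39 and 1.21 in K44A, against 0.78 and 0.63 in V81A and 0.09 and 0.10 in hhf2-wt. It stood above hhf2-wt in both strains.

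Lipid, iron and one-carbon genes split. Fatty acid and phospholipid genes had 6 of 22 higher and 3 lower, beside 21.1% and 22.9% of all probes, with a median of -0.014. INO1 and OPI3, of inositol and phosphatidylcholine synthesis, were higher by 0.96 ± 0.11 and 0.81 ± 0.09. OLE1, the fatty acid desaturase, was lower by -0.72 ± 0.13. INO1 read 0.26 and 0.34 in K44A, against -0.67 and -0.65 in V81A, and 0.69 and 0.54 in hhf2-wt. Ergosterol genes had 13 of 27 lower and 1 higher, beside 22.9% and 21.1% of all probes, with ERG3 at -0.60 ± 0.10. Fewer ergosterol genes were called without K44A b or V81A b, as was so among all probes. Iron genes had 12 of 27 lower and 5 higher, beside 22.9% and 21.1% of all probes. Off chromosome XIV, 10 of 24 were lower and 4 higher. FIT3, a wall protein that helps retain iron carriers, differed by -0.99 ± 0.14. Fewer iron genes were called without K44A b or V81A b, as was so among all probes. Purine and one-carbon genes had 4 of 19 higher and 9 lower, beside the same shares of all probes. The glycine cleavage genes GCV1, GCV2 and GCV3 were lower by -0.50 to -0.64 (log2 differences). All 3 lay under hhf2-wt in K44A, at -0.54, -0.75 and -0.51, against -0.05, -0.11 and 0.11 in V81A. Methionine and sulphur genes had 7 of 28 higher and 9 lower, beside 21.1% and 22.9% of all probes, with a median of -0.108. Among them, MET3 and MET14, of sulphate assimilation, were higher by 0.85 and 0.78 and MET13, a methylenetetrahydrofolate reductase, was lower (-0.75).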
